A study of Rattus norvegicus with 16 samples.

Results

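The effect of cyclic hyperoxia on the retina of newborn rats was measured on post-natal day 5 in 2 strains, as the difference between 4 arrays of oxygen-exposed rats and 4 arrays of room air rats. The groups were F344 (Fischer) rats in cyclic hyperoxia, SD (Sprague Dawley) rats in cyclic hyperoxia, F344 rats in room air and SD rats in room air, all at 5 days of age, with 2 arrays each. From within 12 h of birth, exposed litters stayed with a female rat in a chamber whose air alternated every 24 h between 80% and 21% oxygen. Controls of the same age stayed in room air. The 8 arrays were chosen by their titles out of 16, and the other 8 hold the same groups on day 6. Every probe set with 1 gene symbol was tested, 15097 of 27342 in the table, covering 14324 genes. Each array holds RNA pooled from single rats, and the design text speaks of 3 rats from 2 litters without saying whether this describes each pool. P-values therefore measure only the spread between these pools. The labels do not say which oxygen level the rats breathed just before day 5. The design text calls the strains resistant and susceptible to oxygen-induced retinopathy, and F344 is generally known as the resistant one.

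Oxygen-induced retinopathy is a model of the blinding vessel disease of premature infants. Retinal vessels grow outward after birth in rats, led by vascular endothelial growth factor (VEGF) that astrocytes and neurons secrete where oxygen is low. Cells sense oxygen through prolyl hydroxylases, which mark the hypoxia-inducible factors (HIF) for degradation when oxygen is plentiful. When oxygen is scarce, HIF accumulates and raises genes of glucose uptake, glycolysis, mitochondrial restraint and vessel growth.

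Log2 expression values from the authors' RMA processing were compared with limma, with strain as a block, and a probe set was called at a Benjamini-Hochberg adjusted p under 0.05. Arrays of the same group correlated with r between 0.992 and 0.996 across all probe sets, and day 5 array medians lay between 5.46 and 5.48. The table has no detection calls. A fold is therefore given only where both treatment means exceeded 5.45, the lowest median of an array. This is a working limit, not a measured background level, and signal under it may hold much background. Markers of the labelled tissue were bright. The rod gene Sag averaged 11.07 in hyperoxia and 11.16 in room air, and the cone gene Gnat2 averaged 11.88 in both. All 10 retinal progenitor genes lay above 5.45 in both treatments, while 1 of 8 lens genes in hyperoxia and 2 of 8 in room air did.

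Every change that passed the test on day 5 was a fall. In hyperoxia 27 probe sets of 26 genes were lower than in room air (0.179% of those tested) and 0 were higher (0%). Without correction for multiple testing, 955 probe sets were higher and 1109 were lower at p under 0.05. The genes that fell carry lactate out of cells (Slc16a3), run or regulate glycolysis (Hk2, Pfkfb3, Pfkp, Gpi), sense oxygen (Egln3), grow vessels (Vegfa) or mark endothelium (Tek, Adgrl4, Slco1c1, Slc38a5). All 27 were lower in hyperoxia in each strain. For 25 of the 27, all 4 hyperoxia arrays lay below all 4 room air arrays. The remaining 2, Igfbp2 and Pygl, overlapped only across strains. Of all probe sets, 3.25% showed full separation downward and 2.42% the opposite. The 27 were selected on these same arrays, so their separation follows in part from the call and is no separate support. Over all probe sets the median log2 change was 0.01, and the 5th and 95th percentiles were −0.24 and 0.23. The count of 27 was 14 without SD hyperoxia replicate 1 and 45, of which 9 were higher, without F344 room air replicate 2. The 13 calls lost without SD hyperoxia replicate 1 were Abhd18, Chml, Gpi, Hk2, Kdm3a, Plod2, Pygl, Rasgrp3, Selenop, Slc38a5, Stc1, Tek and Timm10b. In whole retina, fewer cells of a type and less RNA per cell cannot be told apart.

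**Figure D1:**
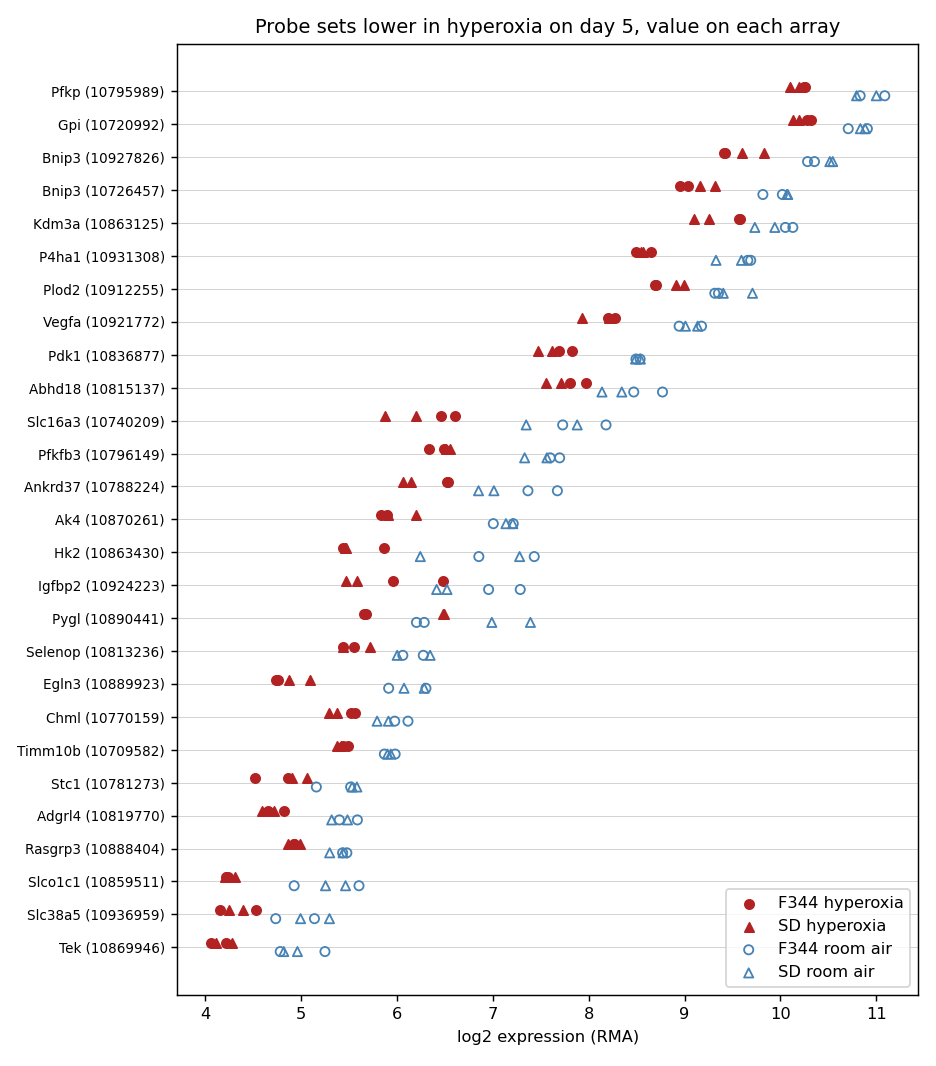
Log2 expression (RMA) of the 27 probe sets called lower in hyperoxia on day 5, ordered by their mean in room air, with 1 point per array. Red filled symbols are hyperoxia and blue open symbols room air, circles F344 and triangles SD. The red points lie left of the blue ones in every row except Igfbp2 and Pygl, where a hyperoxia array of one strain reaches the room air values of the other strain.

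Genes of glucose use held the steepest falls. Slc16a3, the monocarboxylate transporter that exports lactate from glycolytic cells (probe set 10740209, RefSeq gene span chr10:106712328-106756168, GRCr8), read 6.46 and 6.60 in F344 hyperoxia and 5.88 and 6.20 in SD hyperoxia, against 7.73 and 8.18 in F344 room air and 7.88 and 7.35 in SD room air. It was 2.82-fold lower in hyperoxia (log2 change −1.50 ± 0.13 SE, n = 4 arrays per treatment here and below, adjusted p = 0.000307). The lowest room air array lay 0.74 above the highest hyperoxia array. Hk2, the hexokinase that phosphorylates glucose as it enters glycolysis (chr4:116792258-116841275), read 5.44 and 5.86 in F344 hyperoxia and 5.45 and 5.47 in SD hyperoxia, against 6.85 and 7.43 in F344 room air and 7.28 and 6.24 in SD room air. Its room air values spread wider (SD 0.53) than its 4 hyperoxia values (SD 0.20). In hyperoxia 1 F344 array and both Sprague Dawley arrays lay near 5.45, under which signal may hold much background. The size of the fall is therefore uncertain. Hk2 was 2.63-fold lower (−1.40 ± 0.20, adjusted p = 0.00958), and the call was lost without SD hyperoxia replicate 1 (adjusted p = 0.0734).

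Pfkfb3 makes the sugar bisphosphate that activates phosphofructokinase (chr17:71893320-71974526). It read 6.49 and 6.34 in F344 hyperoxia and 6.51 and 6.55 in SD hyperoxia, against 7.70 and 7.60 in F344 room air and 7.56 and 7.33 in SD room air. The fall was 2.11-fold (−1.07 ± 0.09, adjusted p = 0.000296), with no overlap. Pfkp, the platelet-type phosphofructokinase itself, was brighter and fell less, at 10.20 ± 0.07 in hyperoxia and 10.93 ± 0.14 in room air (SD; 1.66-fold, adjusted p = 0.00219). Gpi, the isomerase that acts just before it, averaged 10.23 ± 0.09 in hyperoxia and 10.83 ± 0.09 in room air (1.52-fold lower, adjusted p = 0.00751). Pdk1, the kinase that holds pyruvate out of the mitochondrion by inhibiting pyruvate dehydrogenase, read 7.83 and 7.69 in F344 hyperoxia and 7.47 and 7.62 in SD hyperoxia, against 8.54 and 8.49 in F344 room air and again 8.54 and 8.49 in SD room air. Room air arrays of both strains were thus nearly equal, and Pdk1 fell 1.82-fold (−0.86 ± 0.08, adjusted p = 0.000411). Pygl, the liver-type glycogen phosphorylase, differed between strains in level and fell in each, to 5.68 and 5.65 in F344 hyperoxia and 6.49 and 6.48 in SD hyperoxia, against 6.28 and 6.20 in F344 room air and 7.39 and 6.99 in SD room air (1.56-fold, adjusted p = 0.012).

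Of 20 glycolytic enzyme genes, 4 fell and 0 rose. Taking for each gene its brightest probe set, 18 of the 20 had a negative change and the median was −0.26, against 0.01 over all genes. Over all 14324 genes, 26 fell and 6746 had a negative change, the shares to set beside the counts of every list below. Pgk1 (−0.59, adjusted p = 0.0931), Tpi1 (−0.59, adjusted p = 0.0947), Pfkl (−0.55, adjusted p = 0.0802) and Aldoa (−0.48, adjusted p = 0.0858) had values of similar size to Gpi and did not pass, and are examples chosen after their values were seen. At the other end was Ldhb, the lactate dehydrogenase subunit of oxidative tissue (0.27, adjusted p = 0.257). Gapdh is represented by many probe sets of near-identical copies and is uncertain. Slc16a3 was the 1 of 7 glucose and lactate transporter genes that passed, and the main glucose transporter Slc2a1 had a log2 change of −0.33 (adjusted p = 0.338). Of 10 genes of glycogen use only Pygl fell, with glycogen synthase Gys1 at −0.43 (adjusted p = 0.203).

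Several genes that report or regulate the HIF response also fell. Egln3, a prolyl hydroxylase that is itself induced by HIF (10889923, chr6:77385549-77411015), read 4.75 and 4.74 in F344 hyperoxia and 4.87 and 5.09 in SD hyperoxia, against 6.30 and 5.91 in F344 room air and 6.28 and 6.07 in SD room air. All 4 hyperoxia values lay under the array medians, so only the log2 difference is given (−1.28 ± 0.10, adjusted p = 0.000235). Ak4, an adenylate kinase of the mitochondrial matrix (10870261, chr5:121154565-121214403), read 5.89 and 5.83 in F344 hyperoxia and 5.91 and 6.20 in SD hyperoxia, against 7.21 and 7.00 in F344 room air and 7.21 and 7.14 in SD room air. It was 2.27-fold lower (−1.18 ± 0.09, adjusted p = 0.000235). Both genes were called in all 8 fits that left out 1 array.

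Bnip3, which recruits autophagy to mitochondria, was measured by 2 probe sets that may share targets. Probe set 10927826 averaged 9.56 ± 0.20 in hyperoxia and 10.43 ± 0.13 in room air, and 10726457 averaged 9.12 ± 0.16 in hyperoxia and 10.00 ± 0.12 in room air (SD). They fell 1.82-fold and 1.84-fold, each at an adjusted p of 0.000307. Ankrd37, a small ankyrin-repeat protein known as a HIF target, read 6.53 and 6.52 in F344 hyperoxia and 6.06 and 6.15 in SD hyperoxia, against 7.67 and 7.37 in F344 room air and 7.01 and 6.85 in SD room air. F344 lay above SD in both treatments, and the fall was 1.88-fold (−0.91 ± 0.09, adjusted p = 0.000518). Kdm3a, a histone demethylase, averaged 9.37 ± 0.24 in hyperoxia and 9.96 ± 0.17 in room air (1.51-fold lower, adjusted p = 0.00951).

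A pair of enzymes that modify collagen fell as well. P4ha1, the catalytic subunit of collagen prolyl hydroxylase (10931308, chr20:27784696-27895785), read 8.65 and 8.50 in F344 hyperoxia and 8.55 and 8.56 in SD hyperoxia, against 9.69 and 9.66 in F344 room air and 9.59 and 9.33 in SD room air. Its 4 hyperoxia arrays lay within 0.15 of each other, and it was 2.01-fold lower (SE 0.09 on the log2 scale, adjusted p = 0.000296). Plod2, the lysyl hydroxylase that sets collagen cross-links, averaged 8.83 ± 0.15 in hyperoxia and 9.45 ± 0.18 in room air (1.54-fold lower, adjusted p = 0.00751). P4ha2 (−0.60, adjusted p = 0.0811) and the cross-linking enzyme Loxl2 (−0.57, adjusted p = 0.125) did not pass. Of the 12 genes of this list, 2 fell, 7 had a negative change and the median was −0.04.

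Of 33 HIF target genes outside glucose use, 9 fell and 0 rose, 31 had a negative change and the median was −0.27. Among all 14324 genes, 26 fell and 6746 had a negative change. In 15 of the 33 the brightest probe set had all hyperoxia arrays below all room air arrays, as it did in 468 of all 14324 genes (3.27%). Not every target followed. Epo, the red cell hormone that HIF raises in kidney and liver, read 4.56 and 4.49 in F344 hyperoxia and 4.72 and 4.67 in SD hyperoxia, against 4.43 and 4.40 in F344 room air and 4.44 and 4.33 in SD room air. All of these values are under the array medians (0.21 ± 0.08, adjusted p = 0.279). Adm, the vasodilator adrenomedullin, was dim as well (−0.17, adjusted p = 0.487). Of 11 oxygen-sensing genes only Egln3 passed, while the HIF subunit gene Hif1a averaged 11.34 in both treatments (0.00 ± 0.09, adjusted p = 0.998) and Epas1, which encodes another HIF subunit, had −0.27 (adjusted p = 0.399).

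HIF binds DNA at a short core, ACGTG or GCGTG. RefSeq promoter windows of GRCr8, from 250 bases before to 50 bases after the start that the table uses for a gene, were found for 23 of the 26 genes, 26 windows in all. In 5 of the 26 that start lies over 1 kb inside the RefSeq gene span, by 60350 bases in P4ha1 and by 51613 bases in Pfkfb3, 2 of the genes whose windows are printed. Adjacent to the values above they show which of the falling genes hold the core ACGTG, searched on both strands. It was present in 10 of the 23 genes (43.5%), and in 22.8% of 11806 tested genes with a window. GCGTG was present in 56.5% of the 23 and 41.3% of the tested genes. The palindrome CACGTG, which holds ACGTG on both strands, was found in 4 of the 23 (17.4%) and in 8.1% of tested genes. The 5 windows with the core that belong to the genes of smallest p are shown, read 5′ to 3′ on the gene's strand, with ACGTG or its reverse complement CACGT in capitals. They are P4ha1 (chr20:27844796-27845095, + strand), Pfkfb3 (chr17:71944683-71944982, + strand), Bnip3 (chr1:203154913-203155212, − strand), Pdk1 (chr3:77113264-77113563, + strand) and Ankrd37 (chr16:53001257-53001556, + strand).
P4ha1: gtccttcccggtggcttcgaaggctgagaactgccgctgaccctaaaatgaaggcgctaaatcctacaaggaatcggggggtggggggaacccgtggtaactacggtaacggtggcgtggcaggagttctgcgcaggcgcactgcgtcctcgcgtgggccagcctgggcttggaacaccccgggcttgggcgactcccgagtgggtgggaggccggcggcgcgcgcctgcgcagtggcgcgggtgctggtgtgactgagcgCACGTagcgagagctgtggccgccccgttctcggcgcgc
Pfkfb3: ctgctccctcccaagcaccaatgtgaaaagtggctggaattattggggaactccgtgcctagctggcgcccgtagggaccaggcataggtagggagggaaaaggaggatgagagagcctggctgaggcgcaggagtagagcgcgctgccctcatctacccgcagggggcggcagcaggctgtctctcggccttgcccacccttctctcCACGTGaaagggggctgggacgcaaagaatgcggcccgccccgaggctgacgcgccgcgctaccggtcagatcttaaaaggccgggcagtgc
Bnip3: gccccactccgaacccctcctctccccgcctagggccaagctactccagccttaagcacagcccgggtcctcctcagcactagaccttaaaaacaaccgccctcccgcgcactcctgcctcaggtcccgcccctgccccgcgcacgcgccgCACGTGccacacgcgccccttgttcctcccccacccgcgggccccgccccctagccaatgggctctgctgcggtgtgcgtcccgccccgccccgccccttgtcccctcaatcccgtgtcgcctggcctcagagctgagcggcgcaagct
Pdk1: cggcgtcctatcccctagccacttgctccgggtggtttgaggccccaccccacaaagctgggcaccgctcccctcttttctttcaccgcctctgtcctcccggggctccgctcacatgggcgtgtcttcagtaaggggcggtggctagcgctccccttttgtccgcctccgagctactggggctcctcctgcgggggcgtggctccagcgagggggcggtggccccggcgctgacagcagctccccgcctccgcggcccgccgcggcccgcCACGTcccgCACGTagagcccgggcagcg
Ankrd37: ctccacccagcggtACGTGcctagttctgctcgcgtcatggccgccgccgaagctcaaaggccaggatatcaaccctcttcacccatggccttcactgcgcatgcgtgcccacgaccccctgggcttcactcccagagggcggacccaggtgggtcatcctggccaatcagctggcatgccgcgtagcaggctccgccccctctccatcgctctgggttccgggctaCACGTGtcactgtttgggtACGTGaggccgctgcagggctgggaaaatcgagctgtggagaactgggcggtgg
The core ACGTG stands once in P4ha1, and as a palindrome in Pfkfb3 and in Bnip3. Pdk1 holds ACGTG on the other strand in 2 neighbouring copies, and Ankrd37 holds 4 matches over both strands, 1 palindrome among them. GCGTG is not in capitals. Over both strands it had 2 matches each in P4ha1, Bnip3 and Pdk1, 1 in Ankrd37 and 0 in Pfkfb3. The window of Ak4 holds 1 GCGTG. The windows of Ak4, Egln3, Slc16a3 and Vegfa hold no ACGTG, which says only that these letters are not within these bases. A match is a description of sequence, and binding was not measured.

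Vegfa, the growth factor that draws vessels across the retina (10921772, chr9:22452854-22468194), fell in both strains. It read 8.20 and 8.27 in F344 hyperoxia and 7.92 and 8.21 in SD hyperoxia, against 8.94 and 9.18 in F344 room air and 9.14 and 9.01 in SD room air. The treatments did not overlap, and the fall was 1.89-fold (−0.92 ± 0.09, adjusted p = 0.000683). Other ligands of its family stayed closer to 0, with Vegfb at 0.28 (adjusted p = 0.207), Vegfd at −0.18 (adjusted p = 0.391), Vegfc at −0.11 (adjusted p = 0.582) and Pgf at −0.03 (adjusted p = 0.932). Of 9 genes for VEGF ligands and receptors, 1 fell and 8 had a negative change. The receptor Flt1 lay just outside the threshold. It read 5.80 and 5.81 in F344 hyperoxia and 5.88 and 5.91 in SD hyperoxia, against 6.22 and 6.09 in F344 room air and 6.39 and 6.49 in SD room air (−0.45 ± 0.08, adjusted p = 0.0507).

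Igfbp2, a secreted carrier of insulin-like growth factors, was the other signalling protein with a large fall. It read 5.95 and 6.48 in F344 hyperoxia and 5.59 and 5.47 in SD hyperoxia, against 6.95 and 7.29 in F344 room air and 6.52 and 6.41 in SD room air. Within each strain the treatments did not overlap, and the fall was 1.90-fold (−0.92 ± 0.12, adjusted p = 0.00415). In SD hyperoxia 1 array lay near 5.45, so the size of the fall in SD is uncertain. Of 13 genes of the insulin-like growth factor axis Igfbp2 was the 1 that passed. Igf1 itself, needed for retinal vessel growth, averaged 7.77 in hyperoxia and 8.03 in room air (−0.27 ± 0.09, adjusted p = 0.244). Selenop, the plasma carrier of selenium, fell 1.55-fold (5.53 ± 0.14 in hyperoxia and 6.17 ± 0.17 in room air, SD, adjusted p = 0.0264). It read 5.55 and 5.43 in F344 hyperoxia and 5.44 and 5.72 in SD hyperoxia. Values so near 5.45 leave the size of the fall uncertain. Stc1, a secreted glycoprotein that is induced in hypoxia, had a log2 change of −0.61 (adjusted p = 0.0409) with both means under 5.45. Selenop and Stc1 were called in 3 and 2 of the 8 fits that left out an array.

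A few endothelial genes were lower too, at low signal. Tek, the receptor for angiopoietins that steadies vessels (10869946, chr5:114722815-114849535), read 4.21 and 4.06 in F344 hyperoxia and 4.11 and 4.27 in SD hyperoxia, against 4.78 and 5.25 in F344 room air and 4.96 and 4.82 in SD room air. Every hyperoxia array lay below every room air array (−0.79 ± 0.11, adjusted p = 0.00803). Adgrl4, an adhesion receptor of growing endothelium, read 4.81 and 4.65 in F344 hyperoxia and 4.71 and 4.59 in SD hyperoxia, against 5.40 and 5.59 in F344 room air and 5.32 and 5.48 in SD room air (−0.75 ± 0.08, adjusted p = 0.00154). It was called in all 8 fits that left out an array.

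A pair of transporters of the blood-retina and blood-brain barriers fell too. Slco1c1, which carries thyroxine across brain capillaries, read 4.21 and 4.24 in F344 hyperoxia and 4.20 and 4.31 in SD hyperoxia, against 4.93 and 5.60 in F344 room air and 5.46 and 5.25 in SD room air (−1.07 ± 0.12, adjusted p = 0.00219). Slc38a5, an amino acid transporter of retinal vessels, averaged 4.33 ± 0.17 in hyperoxia and 5.04 ± 0.24 in room air (SD; −0.71 ± 0.12, adjusted p = 0.043). It stood just inside the threshold and was called in 3 of the 8 fits that left out an array. Rasgrp3, an activator of Ras-family proteins that endothelial cells express, had −0.49 ± 0.08 (adjusted p = 0.0211) and was called in 2 of those 8 fits. All of these vascular genes have a hyperoxia mean under 5.45, so the linear size of their falls cannot be read.

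Of 31 endothelial marker genes, 4 fell and 0 rose, 28 had a negative change, and the median was −0.21. Among all 14324 genes, 26 fell and 6746 had a negative change. In 13 of the 31 all hyperoxia arrays lay below all room air arrays, against the 3.27% over all genes given above. Adgrf5, an adhesion receptor of capillary endothelium, was at −0.84 (adjusted p = 0.0685) and the receptor Tie1, a partner of Tek, at −0.45 (adjusted p = 0.0931), and neither passed. The tight junction gene Cldn5 (−0.22, adjusted p = 0.47) and the endothelial cadherin Cdh5 (−0.29, adjusted p = 0.203) are further examples chosen after their values were seen. Podxl, the brightest member, averaged 8.72 in hyperoxia and 8.63 in room air (adjusted p = 0.813). Only 3 of the 31 had a mean above 5.45 in hyperoxia, and 5 of 31 in room air. The summed linear signal of the 31 ranged from 1198 to 1267 in hyperoxia and from 1257 to 1551 in room air, so the treatments overlapped. These sums are weighted toward the brightest members, Podxl among them, and hold the signal of members under 5.45. Their overlap therefore does not describe the single genes.

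Mural cells and sprouting tips gave no call. Of 14 pericyte and smooth muscle genes 0 fell, 13 had a negative change and the median was −0.17. Rgs5, a pericyte regulator of G-protein signalling, read 6.21 and 6.18 in F344 hyperoxia and 5.77 and 6.70 in SD hyperoxia, against 6.95 and 8.30 in F344 room air and 7.40 and 7.33 in SD room air. The groups did not overlap, yet the spread was wide and the test was not passed (−1.28 ± 0.25, adjusted p = 0.0802). The summed signal of that list ran from 499.6 to 584.0 in hyperoxia and from 599.4 to 835.3 in room air, with 2 of its 15 probe sets above 5.45 in hyperoxia and 3 in room air. Of 14 tip cell genes 0 passed, with a median of −0.10, and both means exceeded 5.45 in 2 of the 14. Angpt2, the antagonist of Tek that tip cells release, was at 0.10 (adjusted p = 0.665), and Angpt1, the agonist, at −0.38 (adjusted p = 0.155).

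**Figure D2:**
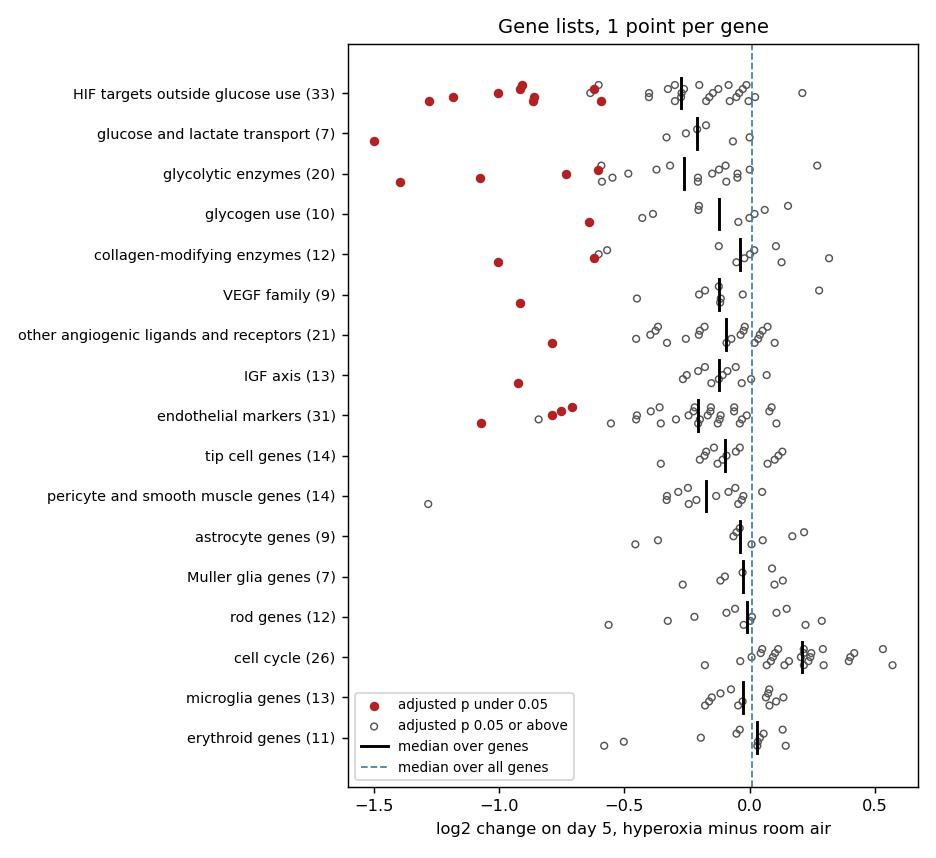
Log2 change on day 5, hyperoxia minus room air, of the genes of 17 lists, with 1 point per gene (its brightest probe set), gene numbers in brackets, red where the adjusted p is under 0.05, a black bar at each median and a dashed line at the median over all 14324 genes. HIF targets, glycolytic enzymes and endothelial markers have medians of −0.27, −0.26 and −0.21 with red points to the left. Taken over both strains, astrocyte, Muller glia, rod and microglia medians lie within 0.04 of 0.

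Markers of the other retinal cell types did not pass. Astrocytes, which guide the vessels, had a median of −0.04 over 9 genes, with the glial stress gene Gfap at 0.17 (adjusted p = 0.44). The median was −0.03 over 7 Muller glia genes, −0.01 over 12 rod genes, −0.04 over 11 cone genes, −0.14 over 10 bipolar genes, −0.02 over 13 amacrine and horizontal genes and −0.02 over 13 ganglion cell genes. Each of these lists held 0 called genes. For rod, amacrine and horizontal, and ganglion cell genes, the medians of both strains lay further from 0. For bipolar, cone, Muller glia and astrocyte genes, a strain median lay closer to 0 than the median over both strains. In F344 and SD the medians were 0.13 and −0.17 for rod genes and 0.02 and −0.23 for bipolar genes. Amacrine and horizontal genes had 0.10 and −0.09, and ganglion cell genes 0.08 and −0.18. Cone genes had −0.01 and −0.10, Muller glia genes 0.02 and −0.04, and astrocyte genes 0.04 and −0.03. These differences between strain medians were not tested. For 13 microglia genes the median was −0.03, and their summed signal ranged from 466.1 to 495.2 in hyperoxia and 482.7 to 497.9 in room air. Only 3 of the 13 microglia genes had both means above 5.45. Genes of tissues beside the retina and of blood varied between arrays. Lens genes summed to between 204.6 and 451.1 in hyperoxia and 241.2 and 425.4 in room air, and erythroid genes to between 323.3 and 490.3 in hyperoxia and 387.9 and 558.1 in room air. The part of these cells in the falls above was not tested.

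The remaining falls have no list in common. Abhd18, an abhydrolase-domain protein, averaged 7.76 ± 0.18 in hyperoxia and 8.43 ± 0.26 in room air (SD; 1.59-fold lower, adjusted p = 0.00958). Chml, a Rab escort protein related to the choroideremia gene, had −0.51 ± 0.08 (adjusted p = 0.0132). Timm10b, part of the machinery that imports proteins into the inner mitochondrial membrane, had −0.49 ± 0.07 (adjusted p = 0.0133). Chml and Timm10b were each called in 3 of the 8 fits that left out an array, and Abhd18 in 5. The probe sets just inside the threshold were Slc38a5, Stc1 and Selenop, and those just outside were Flt1, Fgf10, a growth factor (−0.43 ± 0.08, adjusted p = 0.0568), and Adgrf5.

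No rise passed the test. The positive changes with the smallest p were those of Ppp1r14b, a phosphatase inhibitor (0.50 ± 0.09, adjusted p = 0.0699), the ribosomal protein gene Rpl6 (0.42, adjusted p = 0.0768), Ufc1 of the ufmylation pathway (0.45, adjusted p = 0.0802) and the chromatin ATPase Ruvbl1 (0.47, adjusted p = 0.0877). Next came Cox4i1, a subunit of cytochrome c oxidase, which read 9.80 and 9.98 in F344 hyperoxia and 9.87 and 9.71 in SD hyperoxia, against 9.01 and 9.58 in F344 room air and 9.21 and 9.28 in SD room air (0.57 ± 0.11, adjusted p = 0.0882). Its alternative subunit Cox4i2, which HIF induces in place of Cox4i1, had −0.64 ± 0.14 (adjusted p = 0.123) and is an example chosen after its value was seen. The proteasome subunit Psma6 (0.41, adjusted p = 0.0931), the complement-like C1ql2 (0.51, adjusted p = 0.0931) and Sap18, of a splicing and silencing complex (0.35, adjusted p = 0.0946), complete the 8 of smallest p. With weights estimated per array 8 probe sets were called higher, Cox4i1 and Rpl6 among them. Edn2, an endothelin that stressed photoreceptors release, was at 0.10 with both means under 5.45 (adjusted p = 0.638).

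Effects per strain came from 1 fit of all 8 arrays with a shared spread. Each strain gave 9 falls and 0 rises (0.0596% in F344 and 0.0596% in SD), and all lay among the 27. The strains shared 8 of them, which are Ak4, Egln3, P4ha1, Pfkfb3, Slc16a3, Pdk1 and both probe sets of Bnip3. The same arrays gave the 27, so these counts are no independent replication between strains. Ankrd37 passed only in F344 (adjusted p = 0.0182, against 0.0543 in SD) and Vegfa only in SD (adjusted p = 0.0257, against 0.0787 in F344). These differences were tested directly and did not pass. The SD effect minus the F344 effect was 0.16 ± 0.18 for Ankrd37 (adjusted p = 0.843) and −0.18 ± 0.18 for Vegfa (adjusted p = 0.831). Among the 27, the strain difference was at most 0.31 in size, which was that of Pfkfb3, with −1.23 in F344 and −0.92 in SD. The 27 were selected in a fit with 1 common effect for both strains, which favours small strain differences. By limma 0 of 15097 probe sets differed between strains, with a smallest adjusted p of 0.580 and 1186 at an unadjusted p under 0.05. The 4 of smallest p in which SD was the more positive were Ogn, the olfactory receptor gene Or5h17, Gja1 and the vomeronasal receptor gene Vom2r4. Gja1, the gap junction gene of astrocytes, had −1.27 in F344 and 0.36 in SD. In the other direction stood Irf2bpl, Gucy2f, Camkk1 and Adcy1. Each count of 9 was 0 without F344 hyperoxia replicate 1 or 2, and that of SD also without any 1 of the SD hyperoxia or SD room air arrays. It was 16 in both strains without F344 room air replicate 1 and 16 in SD without replicate 2, while the F344 count was 5 without SD hyperoxia replicate 1 or 2.

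**Figure D3:**
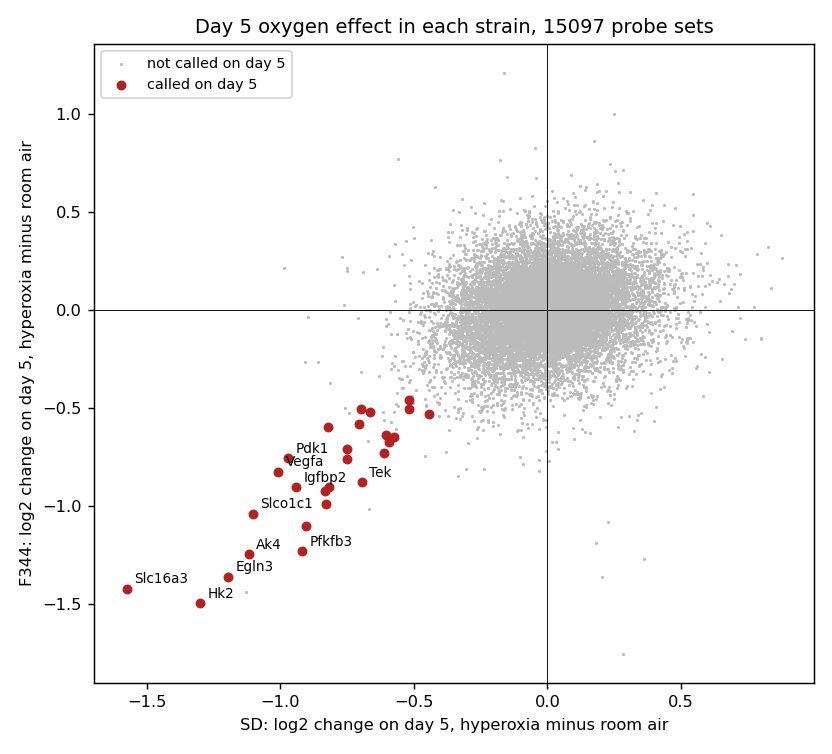
Log2 change on day 5, hyperoxia minus room air, in F344 (vertical) and SD (horizontal) for 15097 probe sets, with the 27 called over both strains in red. The red points lie in the lower left quadrant near the diagonal, a place that their selection on these same values favours. Over all probe sets, which are not independent, Pearson's r was 0.22.

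Cell cycle genes gave no call. Of 26 genes 0 passed over both strains and 2 had a negative change. The median was 0.21 over both strains, −0.07 in F344 and 0.43 in SD, a difference between medians that was not tested. Cdk1, the kinase that starts mitosis, had 0.57 ± 0.20 over both strains (0.32 in F344 and 0.82 in SD, adjusted p = 0.256). The summed signal of the list was lowest on SD room air replicate 2, at 6166, and 9315 on its partner, against 9847 and 10505 in SD hyperoxia. In a check chosen after seeing the data, the SD median was 0.17 without SD room air replicate 2 and 0.76 without replicate 1.

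The same 27 probe sets were then read on day 6, in arrays and controls that day 5 does not use. On that day 335 probe sets were higher in hyperoxia (2.22%) and 57 lower (0.378%). Of the 27, 15 had a positive change on day 6, 6 were called higher and 2 were called lower. Ak4 read 7.36 and 7.71 in F344 hyperoxia and 7.08 and 7.22 in SD hyperoxia, against 6.50 and 6.81 in F344 room air and 6.68 and 6.80 in SD room air, so that all hyperoxia arrays lay above all room air arrays (0.64 ± 0.13, adjusted p = 0.0323). The other 5 called higher were Ankrd37 (0.54, adjusted p = 0.0357), Egln3 (0.56, adjusted p = 0.0475), Pdk1 (0.39, adjusted p = 0.0469), Bnip3 by 10726457 (0.39, adjusted p = 0.0469) and Igfbp2 (0.56, adjusted p = 0.0487). Slc16a3 (0.58, adjusted p = 0.0797) and Vegfa (0.17, adjusted p = 0.357) were positive and did not pass. These day 6 calls are fragile. F344 hyperoxia replicate 2 of day 6 differed most from the rest (interquartile range 2.81, r with its partner 0.984), and the 392 calls of that day ranged from 1 to 1823 when any 1 array was left out. The count was 1823 without F344 hyperoxia replicate 1, 131 without its partner, 114 without SD room air replicate 1 and 1 to 5 without any 1 of the other 5 arrays. None of the 8 was called in all 8 such fits, while each kept its sign in all of them.

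The difference between days was tested over all 16 arrays and was steadier. Chamber air alternated every 24 h, so rats taken on successive days may have differed in oxygen phase as well as age. The labels do not give the phase, so age and phase cannot be told apart here. The oxygen effect was more positive on day 6 for 26 probe sets (0.172%) and more negative for 0. Of those 26, 13 are among the 27 that fell on day 5. They are Ak4, Egln3, P4ha1, Pfkfb3, Slc16a3, both probe sets of Bnip3, Pdk1, Ankrd37, Vegfa, Igfbp2, Abhd18 and Pygl. The difference contains the day 5 effect by which the 27 were selected, so this overlap is in part built in. The day 6 effect exceeded the day 5 effect by 2.08 ± 0.23 for Slc16a3 (adjusted p = 0.000261), by 1.83 ± 0.15 for Egln3 (adjusted p = 1.66e-05) and by 1.09 ± 0.13 for Vegfa (adjusted p = 0.000861). All except P4ha1 were called in each of the 16 fits that left out an array, and P4ha1 in 10. Without F344 hyperoxia replicate 1 of day 6 the count of 26 was 70, and without its partner it was 41.

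The endothelial genes that fell on day 5 were also read on day 6. Tek was lower in hyperoxia on day 6 too (−0.56 ± 0.12, adjusted p = 0.0439), at 4.83 and 4.45 in F344 hyperoxia and 4.50 and 4.52 in SD hyperoxia, against 4.91 and 4.97 in F344 room air and 5.33 and 5.32 in SD room air. Slc38a5 was lower as well (−0.94 ± 0.13, adjusted p = 0.0158), with 4 hyperoxia values between 4.08 and 4.69 and 4 room air values between 5.17 and 5.33. Adgrl4 (−0.41, adjusted p = 0.0635) and Slco1c1 (−0.53, adjusted p = 0.135) were negative and did not pass. The difference between days did not pass for Tek (0.23 ± 0.15, adjusted p = 0.74), Slc38a5 (−0.23 ± 0.19, adjusted p = 0.822), Adgrl4 (0.35 ± 0.13, adjusted p = 0.44) or Slco1c1 (0.54 ± 0.24, adjusted p = 0.545). By list, the median over endothelial markers was −0.14 on day 6, with 9 of 31 positive, while that over HIF targets outside glucose use was 0.21, with 27 of 33 positive. Glycolytic enzymes had a day 6 median of 0.01. Gpi (−0.10), Pfkp (−0.02), Plod2 (−0.03) and Kdm3a (−0.05) were near 0 on day 6, and for these 4 the difference between days did not pass.

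**Figure D4:**
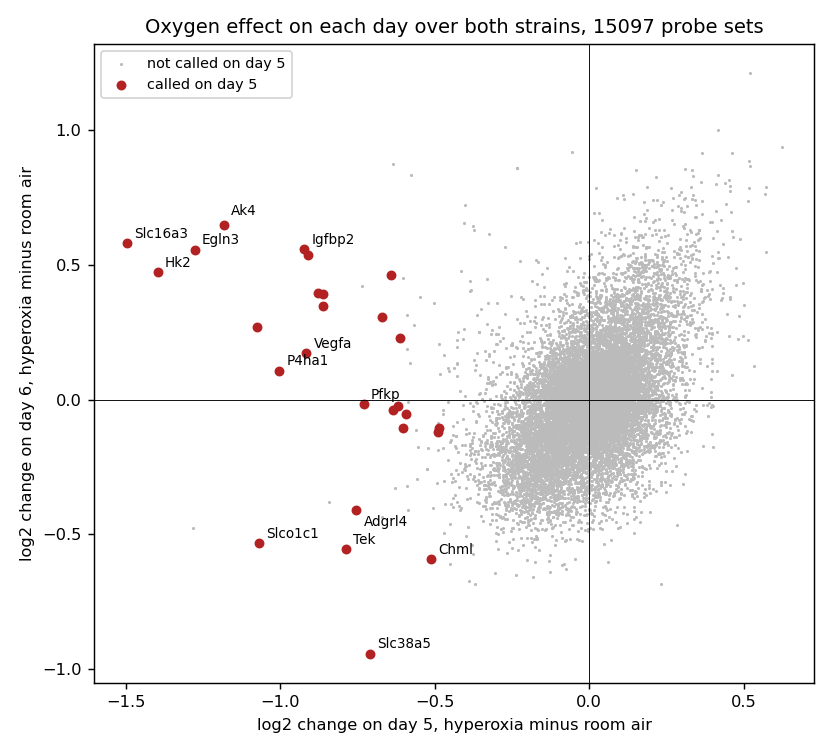
Log2 change, hyperoxia minus room air over both strains, on day 6 (vertical) and day 5 (horizontal) for 15097 probe sets, with the 27 called on day 5 in red. Slc16a3, Hk2, Egln3 and Ak4 lie in the upper left, negative on day 5 and positive on day 6, while Slco1c1, Tek and Slc38a5 lie in the lower left, negative on both days.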

How the data were processed

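Total RNA of rat retinae was labelled with biotin and hybridised to single-colour Affymetrix gene arrays, per the labels' protocols, with the ribosomal RNA left in. The authors deposited log2 values for 27342 probe sets, with Partek 6.4 and RMA named in the submitters' processing notes. RMA corrects background, quantile-normalizes and summarises probes, so a change shared by most transcripts would not be seen. Scanner files were not used here.

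Gene names came from the array platform's annotation, which gave a single symbol to 15097 probe sets, several to 323 and no entry to 11922. Of the 15097, 15067 were matched to RefSeq GRCr8 genes by Entrez identifier, and 30 kept the annotated symbol.

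The test was limma 3.58.1 (R 4.3.3) on the log2 values of the 8 day 5 arrays, with strain as a block, empirical Bayes moderation and Benjamini-Hochberg adjustment over all 15097 probe sets. Residual degrees of freedom were 5 and prior degrees of freedom 7.00. Effects per strain and their difference came from 1 mean per group on the same arrays, the day 6 effect from the 8 day 6 arrays, and the day difference from all 16. The steps were tested on simulated data. Standard errors of log2 changes are moderated, and folds are ratios of geometric means. The number of arrays limits the precision.

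The comparison and the 34 gene lists were chosen with earlier results of these data known. Genes named are the called probe sets, the 8 rises of smallest p, up to 4 members of smallest p per list, 8 angiogenic or stress genes, the 4 of smallest p each way for strain and day differences, and 3 on each side of the threshold. Alternatives covered the block, the probe sets tested, dim signals, the prior, array weights, normalization and leaving out each array.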

Additional observations from a re-analysis of the deposited data

Results flagged for a closer look

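The oxygen effect differed between days for 26 probe sets in a direct test over all 16 arrays (limma, adjusted p under 0.05), all with a more positive effect on day 6 than on day 5. On the log2 scale the day 6 effect minus the day 5 effect was 2.08 for the lactate exporter Slc16a3, 1.83 for Ak4, 1.83 for Egln3, 1.48 for Igfbp2, 1.45 for Ankrd37 and 1.34 for Pfkfb3. It was 1.21 and 1.27 for the 2 probe sets of Bnip3, 1.25 for Pdk1, 1.11 for P4ha1, 1.10 for Pygl, 1.09 for Vegfa and 0.98 for Abhd18. These 13 are among the probe sets called lower on day 5, and their difference contains the day 5 effect that selected them. Age and oxygen phase cannot be told apart in the difference between days. Outside them were the collagen prolyl hydroxylase P4ha2, with a difference of 1.05, and the metallothionein Mt1, which binds zinc and copper, with 1.06 and 1.02 by its 2 probe sets. Mt1 had day 5 changes of −0.41 and −0.38 (adjusted p = 0.155 and 0.165) and day 6 changes of 0.65 and 0.64 (adjusted p = 0.0193 and 0.0171).

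Probe sets with several symbols or none were left out of the comparison, 12245 in all. When every probe set of the table was tested together, 8 of them were called on day 5, 6 lower and 2 higher in hyperoxia. They have no single gene name here. Groups of 2 arrays are too small for a check of single outlying samples.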

How the results depend on the processing

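The 27 falls over both strains were 17 with no strain term, 47 (45 lower) with a trended and robust prior and 96 (88 lower, 8 higher) with array weights. Leaving out 1 array gave 14 to 45. Other settings gave 21 to 33. Of 155 probe sets followed on day 5, 3 turned sign without 1 of the arrays (Lhx2, Crygd and Bfsp1), and on day 6 P4ha1, Pfkp, Plod2, Kdm3a and Selenop did, as did Chml in the difference between days. None of them passed the test in that comparison or when turned. Calls lost without 1 array, beyond those named above, were Abhd18, Chml, Pygl, Rasgrp3, Selenop, Slc38a5, Stc1, Tek and Timm10b without F344 hyperoxia replicate 2, and fewer without the other arrays. Of the 27, 14 were called in all 8 such fits. With 1 mean per group over all 16 arrays the F344 count of 9 was 16. Leaving out 1 array gave 0 to 16 in F344 and 0 to 16 in SD, 0 to 1 for the strain difference (1 without F344 room air replicate 1), 1 to 1823 on day 6 and 20 to 70 for the difference between days. Arrays of the same replicate number had weakly correlated deviations of mixed sign. The correlation of their deviations from the group means was 0.21 in F344 and −0.17 in SD on day 5, and −0.22 and −0.01 on day 6. With the replicate number as a block the day 5 count was 33 (30 lower, and Cox4i1, Sem1 and Cox5b higher), the F344 count 14, the SD count 5, the day 6 count 40 and the count of day differences 27. The signal of dim probe sets, most endothelial markers among them, limits what can be said of their linear change. The cause of these shifts was not tested.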

Other observations

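Large families of housekeeping genes lay to the other side of 0 on day 5, with 0 probe sets called in any of them. They were grouped by gene symbol after their values were seen, and are given as description. Of 77 probe sets for subunits of the respiratory chain and ATP synthase, 70 had a positive change, with a median of 0.18 (0.20 in F344 and 0.14 in SD). Of 255 probe sets for cytosolic ribosomal proteins, many of them near-identical copies, 219 were positive, with a median of 0.15. Mitochondrial ribosomal proteins had 54 of 71 positive and a median of 0.10, and proteasome subunits 37 of 41 and a median of 0.19. Over all 15097 probe sets 8053 were positive, with a median of 0.01. On day 6 the medians of the 4 families were 0.37, 0.39, 0.29 and 0.33.

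Cholesterol synthesis, antioxidant, p53, circadian clock and basement membrane lists had medians between −0.13 and 0.09. Cholesterol synthesis genes had a median of 0.09 over 10 genes, with 2 negative, antioxidant genes a median of 0.02 over 19 and p53 targets 0.00 over 9. Circadian clock genes had 12 of 13 negative and a median of −0.12 (−0.02 in F344 and −0.18 in SD). Basement membrane genes had 8 of 8 negative and a median of −0.13, with fibronectin Fn1 at −0.44 (adjusted p = 0.0931). None of these lists held a called gene.

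Among the remaining lists, retinal progenitor genes had a median of 0.08 over 10 genes, genes of pigment epithelium and choroid 0.06 over 7, skeletal muscle genes 0.09 over 7, ATF4 and endoplasmic reticulum stress genes 0.04 over 13, immediate early genes −0.01 over 10, erythroid genes 0.03 over 11 and lens genes −0.03 over 8, with 0 called in each. Of 8 genes of thyroid hormone transport and action 1 fell, Slco1c1, and the median was −0.08. Of 21 angiogenic ligands and receptors outside the VEGF family 1 fell, Tek, 15 had a negative change and the median was −0.09.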
